A study of Kluyveromyces marxianus with 6 samples.

Results

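Transcription from both strands of the pyruvate decarboxylase gene (PDC) and of 2 alcohol dehydrogenase genes (ADH) was followed through exponential growth of the yeast Kluyveromyces marxianus. The study named these genes as fermentation genes that carry antisense transcripts. They comprise 6 of the 14298 transfrags in the deposited table, a sense and an antisense transfrag for each gene. A transfrag is a stretch of the genome with continuous read coverage on 1 strand. The 6 were taken by gene name and position, but the study had named these genes for the induction of their antisense strands in these libraries, so their antisense changes are a description and not independent evidence of a direction.

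PDC removes carbon dioxide from pyruvate, the end product of glycolysis, and leaves acetaldehyde. ADH enzymes interconvert acetaldehyde and ethanol, either in the cytosol, where ethanol is formed, or in mitochondria, where it can be oxidised again. K. marxianus is classed as a Crabtree-negative yeast, which respires sugar when oxygen is present and ferments little unless oxygen is limiting. Antisense transcripts are read from the DNA strand opposite a gene and in yeasts have been tied to both higher and lower output of that gene.

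The strain, ATCC 36907 (KM7), was cultured in synthetic dextrose medium without uracil, and RNA was collected at optical densities of about 3, 7 and 10, which stand for the early (EE), middle (ME) and late (LE) part of exponential growth. Each phase had 2 strand-specific libraries, from biological replicates, of RNA depleted of ribosomal RNA, 6 in all, and no treatment or mutation distinguished the groups. The authors averaged both libraries of a phase, so each transfrag has 1 level per phase and no test between phases could be made. A level here is a read count divided by the library's DESeq size factor, which is the scale that sets libraries to a common depth, and then averaged over the phase.

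The steps between low levels gave the size factors of the libraries back, 0.707 and 0.375 in EE, then 1.85 and 1.37 in ME, then 1.70 and 1.26 in LE. With these factors, a level that rests on 3 reads is 4.00, 1.09 and 1.19 in EE, ME and LE, so the EE levels are the coarsest. Mapped reads of both libraries together were 23309796, 28076013 and 37484281 in EE, ME and LE. The size factors of EE and ME differ more than their mapped reads do, and the cause was not tested. Standard errors (SE) below cover counting error only, and a wider SE scales that error by the spread between the EE libraries, whose variance was 2.37 times that of counting at levels up to 12. The spread between libraries was not measured at higher levels or in ME and LE, so neither SE holds the replicate error there. Over all 14298 transfrags, the median log2 change of level + 1 was -0.40 for ME against EE, -0.62 for LE against EE and -0.014 for LE against ME on the deposited scale, while the median over lancRNAs was 0.24 in ME and 0.25 in LE against EE. Levels are relative within a phase, and a change in RNA per cell cannot be told apart from a change in a transcript's share.

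The 3 sense transfrags are classed as mRNA and their antisense partners as lancRNA, the study's term for a long noncoding RNA that lies antisense to a gene. The PDC mRNA, transfrag10819, lies on the plus strand of contig 105 at positions 1013712 to 1015406, a length of 1695 bp. It coincides end to end with the gene model whose closest homolog is PDC1 of K. marxianus, and the authors had divided transfrags at gene boundaries. Its antisense partner, transfrag12574, lies on the minus strand at 1013703 to 1015602 and is 1900 bp long. The first ADH gene, here called ADH-114 for its contig, has its mRNA, transfrag28644, on the minus strand of contig 114 at 239884 to 242852, 2969 bp. Its antisense partner, transfrag26521, is on the plus strand at 240084 to 241178, 1095 bp. The other, ADH-91, has its mRNA, transfrag01196, on the plus strand of contig 91 at 38588 to 40102, 1515 bp, and its antisense partner, transfrag01622, on the minus strand at 38712 to 39882, 1171 bp. The gene model under transfrag01196 is 1128 bp long and its closest homolog is ADH3 of Kluyveromyces lactis, which encodes a mitochondrial ADH in that species. The mRNA begins at the first base of this model and runs 387 bases past its end. The gene model under ADH-114 was not analysed here, and the gene name is the study's.

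All 6 transfrags are long for their class. The median length was 577 bp over 5785 mRNAs and 374 bp over 3067 lancRNAs, and 89 mRNAs were longer than transfrag28644 while 67 lancRNAs were longer than transfrag12574. Reads that matched several places in the genome were placed at random among them, so the division of reads among ADH copies is uncertain to the extent that the copies share sequence.

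The 3 mRNAs were among the most abundant of the table in every phase, and none was lower in ME or LE than in EE. The PDC mRNA had levels of 9537, 21290 and 21405 in EE, ME and LE. On the deposited scale its level was therefore higher in ME and LE than in EE and almost equal in ME and LE. Among all transfrags, where rank 1 is the highest level, it ranked 68, 20 and 29 in EE, ME and LE, and it made up 0.234%, 0.626% and 0.461% of the summed level of those phases.

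The ADH-114 mRNA had levels of 9367, 16126 and 26498 in EE, ME and LE, higher in each later phase. It ranked 70, 25 and 20 and held 0.230%, 0.474% and 0.570% of the summed level in EE, ME and LE. The ADH-91 mRNA had levels of 4146, 12788 and 27399 in EE, ME and LE. In EE it was the lowest of the 3 mRNAs, at rank 159, and in LE it was the highest, at rank 19, after rank 36 in ME. Its share of the summed level was 0.102%, 0.376% and 0.590% in EE, ME and LE.

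Levels per kb allow the genes to be compared with each other. Per kb, PDC stood at 5627, 12560 and 12628 in EE, ME and LE, ADH-114 at 3155, 5432 and 8925, and ADH-91 at 2737, 8441 and 18085. PDC was thus the highest of the 3 per kb in EE and ME, and ADH-91 in LE. The order of the ADH genes per kb also differed by phase, with ADH-91 below ADH-114 in EE and above it in ME and LE. Counting SEs of these mRNA levels were at most 1.57% and the wider SEs at most 2.42%, but without the spread between libraries these orders have no replicate check. ADH-114 has the longest transfrag, so its rank per kb was 129, 49 and 41 in EE, ME and LE, below its rank by level, whereas PDC ranked 74, 22 and 27 per kb and ADH-91 157, 34 and 20.

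**Figure D1:**
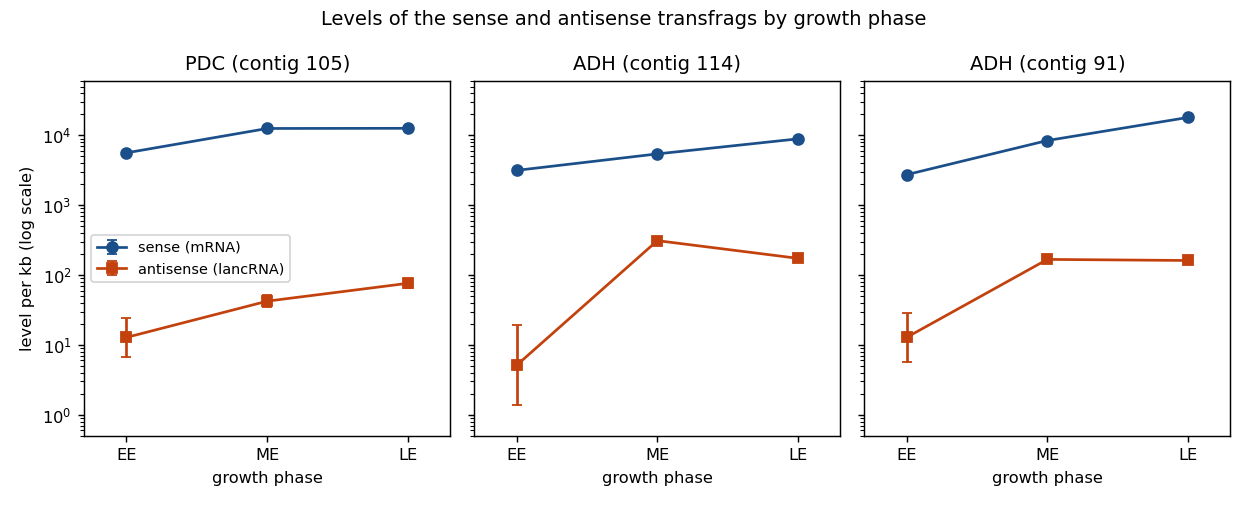
Levels per kb (log axis) of the sense mRNA (circles) and the antisense lancRNA (squares) of each gene in EE, ME and LE; bars span 2 wider SEs on the log scale and are smaller than most symbols. The mRNAs lie between 2737 and 18085 per kb and the antisense transfrags between 5.10 and 311.2, lowest in EE for all 6.

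The 3 antisense transfrags were each lowest in EE and much less abundant than their mRNAs. The PDC antisense had levels of 24.4, 80.5 and 145.0 in EE, ME and LE, higher in each later phase. The ADH-114 antisense had levels of 5.58, 340.8 and 190.0 in EE, ME and LE, so its highest level was in ME. The ADH-91 antisense had levels of 15.0, 196.3 and 189.4 in EE, ME and LE, with ME and LE close together. On the deposited scale each gene's antisense thus followed a different course after ME.

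In EE these levels rest on few reads, and the steps of the scale gave the reads of each library. The PDC antisense had 25 and 5 reads in the EE libraries with size factors 0.707 and 0.375, which are 35.4 and 13.3 after scaling (SD 15.6, n = 2). The ADH-114 antisense had 6 and 1 reads, 8.49 and 2.67 after scaling (SD 4.11, n = 2). The ADH-91 antisense had 8 and 7 reads, 11.3 and 18.7 after scaling (SD 5.20, n = 2). Which of these is replicate 1 is not known. In all 3 cases both EE libraries lie below the ME and LE means. The SE of the EE mean from both libraries is 45.2% for PDC, 52.2% for ADH-114 and 24.5% for ADH-91, and the wider SE is 31.5%, 65.8% and 40.2% for the same genes.

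Among the 3067 lancRNAs, the ADH-114 antisense ranked 1993, 77 and 198 in EE, ME and LE. The ADH-91 antisense ranked 877, 134 and 201, and the PDC antisense 572, 347 and 262. In EE the order by level was PDC, ADH-91 and ADH-114, and neighbours in it differed by less than 2 wider SEs. In ME it was ADH-114, ADH-91 and PDC, and in LE both ADH antisense levels were alike and above PDC, orders that have no replicate check. Per kb, the PDC antisense had levels of 12.8, 42.3 and 76.3 in EE, ME and LE, the ADH-114 antisense 5.10, 311.2 and 173.5, and the ADH-91 antisense 12.8, 167.6 and 161.8. In EE the PDC and ADH-91 antisense levels per kb were alike, and the antisense of both ADH genes stood above that of PDC in ME and LE.

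How far each level moved between phases is given as the log2 ratio of level + 1, with the added 1 understating changes of low levels, and a change is called where it reaches 2-fold. All 3 antisense transfrags were called higher in ME than in EE, where 34.3% of lancRNAs were, and all 3 in LE, where 37.2% were. Among lancRNAs averaging a level of 10 or more, as all 3 do, the shares were 51.8% in ME and 58.1% in LE. Of the mRNAs, PDC and ADH-91 were called higher in ME, where 33.6% of all mRNAs and 45.4% of those averaging 10 or more were. All 3 were called higher in LE, against 34.2% and 47.5%. As deposited, no transfrag of the 6 was called lower in any comparison, where 31% of mRNAs and 25.2% of lancRNAs were lower in ME and 37.2% and 28.6% in LE. Against these backgrounds, a call alone sets the 6 little apart, and the sizes below show where they stand in their class.

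The ADH-114 antisense had the largest change of the 6. Its log2 change was 5.70 for ME against EE (counting SE 0.53, wider SE 0.81), and 4 of the 3067 lancRNAs had a larger one. For LE against EE it was 4.86 (counting SE 0.53, wider SE 0.81), and 22 lancRNAs were larger. With a level of 5.58 from 7 reads in EE, this size is the least certain of the set. The ADH-91 antisense had log2 changes of 3.63 in ME (wider SE 0.55) and 3.57 in LE (wider SE 0.55), exceeded by 86 and 135 lancRNAs. The PDC antisense had 1.68 in ME (wider SE 0.46) and 2.53 in LE (wider SE 0.45), exceeded by 673 and 374. Its size depended on the EE library. With only the EE library of the larger size factor it was 1.16 in ME and 2.01 in LE, and with only the other library 2.51 and 3.35. The ADH-114 antisense likewise had 5.17 and 4.33 with only the EE library of the larger size factor, and 6.54 and 5.70 with only the other.

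The mRNAs had smaller log2 changes than their antisense partners, although the gap was less than 2 wider SEs of the antisense for PDC in ME and ADH-91 in LE. PDC mRNA had log2 changes of 1.16 in ME and 1.17 in LE against EE (wider SE 0.025 for both), and 1814 and 1864 of the 5785 mRNAs had larger ones. ADH-114 mRNA stood at 0.78 in ME, below the limit, and was 2.83-fold higher in LE, with 2097 and 1645 mRNAs above it. ADH-91 mRNA had the largest changes of the 3, 1.62 in ME and 2.72 in LE, with 1459 and 820 mRNAs above it. Taken relative to the median of all transfrags, the PDC, ADH-114 and ADH-91 mRNAs stood 1.56, 1.19 and 2.03 log2 units up in ME and 1.79, 2.12 and 3.35 up in LE. The antisense of PDC, ADH-114 and ADH-91 stood 2.09, 6.10 and 4.03 up in ME and 3.15, 5.48 and 4.20 up in LE.

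The calls for the mRNAs depended on how the phases were set on 1 scale. With each phase scaled to its summed level without the 100 highest transfrags, 1 of the 3 mRNAs was called higher in ME and 1 in LE, ADH-91 in both. The antisense calls against EE were the same under every scaling tried.

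From ME to LE, 1 of the 6 passed the limit, the ADH-91 mRNA with a log2 change of 1.10 for LE against ME (wider SE 0.014), where 4.91% of mRNAs were called higher and 14.6% lower. The PDC mRNA had 0.0078 (wider SE 0.012) and the ADH-114 mRNA 0.72. The PDC antisense had 0.84 (wider SE 0.17), the ADH-114 antisense -0.84 (wider SE 0.12) and the ADH-91 antisense -0.051 (wider SE 0.13), while 7.08% of lancRNAs were called higher and 11.7% lower. These changes depended on the scaling. The change of the ADH-91 mRNA was 0.56 by mapped reads, 0.65 by the summed level and 0.67 by the summed level without the 100 highest transfrags, so its call was lost under all 3. The same scalings gave -0.53, -0.44 and -0.42 for the PDC mRNA, which was thus even between ME and LE only on the deposited scale. They gave -1.38, -1.29 and -1.27 for the ADH-114 antisense, which was then called lower in LE than in ME. The PDC antisense stayed positive at 0.31, 0.39 and 0.41.

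**Figure D2:**
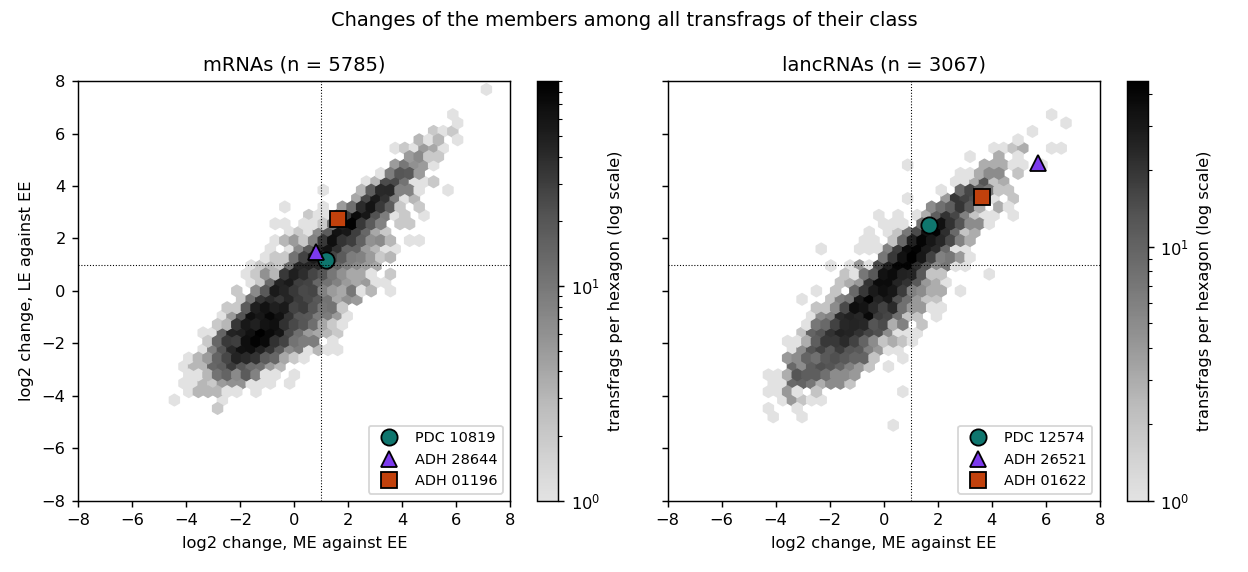
Log2 change of level + 1 for ME against EE (x) and LE against EE (y) of all 5785 mRNAs (left) and 3067 lancRNAs (right), with hexagons shaded by the number of transfrags on a log scale, the 6 members marked, and dotted lines at a 2-fold change. The ADH-114 antisense lies at the edge of its class at 5.70 and 4.86, whereas the 3 mRNAs lie within the bulk of theirs.

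The ratio of antisense to mRNA within a phase does not depend on the scaling between phases, because both come from the same libraries. The antisense amounted to 0.255%, 0.378% and 0.677% of the mRNA level for PDC in EE, ME and LE. For ADH-114 it was 0.0596%, 2.11% and 0.717%, and for ADH-91 0.362%, 1.54% and 0.691%. In EE the ratios rest on few antisense reads, with wider SEs of 0.081, 0.039 and 0.15 percentage points for PDC, ADH-114 and ADH-91. In ME the 3 ratios stood apart, and in LE they lay within the wider SEs of each other. The wider SEs in LE were 0.051, 0.047 and 0.046 percentage points for PDC, ADH-114 and ADH-91. The wider SE does not hold the replicate error in ME and LE, so these comparisons have no replicate check. In ME the ADH antisense stood at several times the PDC ratio.

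The pairs with the most abundant mRNAs give a scale for these ratios. The 100 mRNA and lancRNA pairs with the highest mRNA per phase had median ratios of 0.113%, 0.367% and 0.327% in EE, ME and LE. By level, the 3 genes thus lay at or above the median in every phase except ADH-114 in EE. Of these 100 pairs, 74, 52 and 60 were below PDC in EE, ME and LE, 24, 78 and 63 were below ADH-114, and 86, 74 and 61 were below ADH-91. The lowest mRNA level among the 100 pairs was 9152 in EE. The ADH-91 mRNA, at 4146 in EE, lay below it, so in that phase ADH-91 is set against pairs of higher output. Per kb of each transfrag, PDC and ADH-91 stood lower among the pairs. The per kb ratio was 0.228%, 0.337% and 0.604% for PDC, 0.162%, 5.73% and 1.94% for ADH-114, and 0.468%, 1.99% and 0.894% for ADH-91. The corresponding medians of the 100 pairs were 0.284%, 1.32% and 1.03%. Per kb, 42, 15 and 37 of the 100 pairs were below PDC in EE, ME and LE. In the same order, 27, 79 and 69 were below ADH-114, and 72, 62 and 45 were below ADH-91. By this measure PDC lay under the median in every phase, ADH-114 in EE and ADH-91 in LE.

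**Figure D3:**
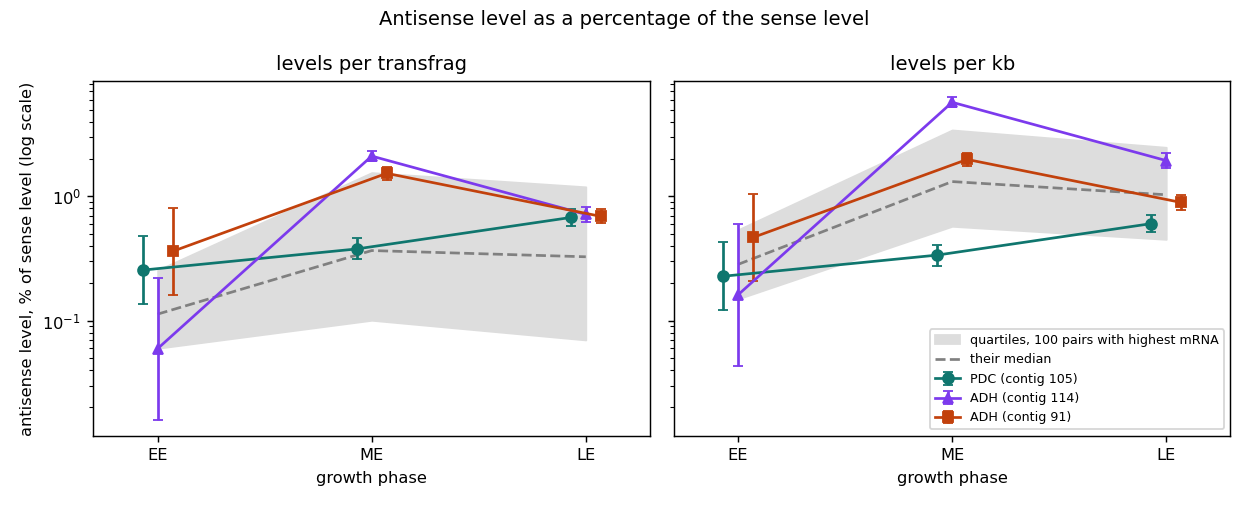
Antisense level as a percentage of the mRNA level (log axis) in EE, ME and LE, by level per transfrag (left) and per kb (right), for the 3 genes (symbols shifted sideways for clarity, bars of 2 wider SEs on the log scale) over the quartiles and median of the 100 pairs with the highest mRNA. By level the genes meet in LE between 0.677% and 0.717%, and ADH-114 spans the widest range, 0.0596% to 2.11%.

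How many antisense reads are mRNA reads assigned to the wrong strand was not measured directly. The 5th percentile of the per kb ratio in those 100 pairs, 0.0667%, 0.224% and 0.164% in EE, ME and LE, was taken as an estimate of them and subtracted over the overlap. This left levels of 18.0, 32.7 and 109.8 for the PDC antisense in EE, ME and LE, 3.28, 327.4 and 173.9 for ADH-114, and 12.9, 174.1 and 154.6 for ADH-91. The PDC antisense then had a log2 change of 0.83 in ME, which is under the 2-fold limit and below the 1.16 of its mRNA, and 2.55 in LE. The ADH antisense kept log2 changes of 6.26 and 5.35 for ADH-114 and 3.66 and 3.49 for ADH-91 in ME and LE, although the remaining 3.28 of ADH-114 in EE is under the level of 3 reads.

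The antisense transfrags cover their mRNA transfrags in different ways. The PDC antisense starts 196 bases beyond the 3′ end of the mRNA and runs through the whole gene to 9 bases before its 5′ end, so it covers 100% of the mRNA. Such full cover was found in 124 of 2374 overlapping mRNA and lancRNA pairs, 5.22%. The ADH-91 antisense lies wholly inside its mRNA, from 220 bases short of the 3′ end to 124 bases short of the 5′ end, and covers 77.3% of it. It spans 1004 bases, or 89.0%, of the gene model and starts 167 bases past the model's end. The ADH-114 antisense also lies wholly inside, starting 200 bases short of the 3′ end and ending 1674 bases short of the 5′ end, and covers 36.9% of the mRNA. That mRNA transfrag is 2969 bp long and its gene model was not analysed here, so the share of the gene covered is not known. The PDC mRNA ends with its gene model and the ADH-91 mRNA runs 387 bases past its own, so the percentages have unlike bases. An antisense wholly inside its mRNA was found in 1331 pairs, 56.1%, and the median cover was 29.6%. The 3 antisense transfrags thus start near the 3′ end of the mRNA transfrag, between 196 bases outside and 220 bases inside it, and differ in where they end.

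Both ADH genes carry a further transfrag on the opposite strand. At ADH-114, transfrag26522, an 898 bp transfrag that the study classed as intergenic (lincRNA), lies wholly opposite the 5′ part of the mRNA transfrag, 188 bases from the end of the antisense. Its levels were 32.8, 171.5 and 324.4 in EE, ME and LE, higher in each later phase. Against EE its log2 change reached 2.35 in ME and 3.27 in LE, and LE against ME it was 0.92. Per kb it stood at 36.6, 191.0 and 361.2, above the antisense in EE and LE and below it in ME. The signal opposite the ADH-114 mRNA thus had its highest level in ME over the 3′ stretch and in LE over the 5′ stretch. At ADH-91, transfrag01623, a 54 bp intergenic fragment 100 bases from the start of the antisense, was listed at 0, 3.78 and 6.15 in EE, ME and LE. With 0 in EE, the size of its change depends on the added 1.

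The surroundings of the 3 genes differed in how many neighbours were called. In all, 30 further transfrags lay within 3 kb of a pair on either strand, 11 at PDC, 13 at ADH-114 and 6 at ADH-91. Of all transfrags in the table, 26.7% were called higher and 36.9% lower in ME, and 27% and 42.7% in LE. Around PDC, 0 of the 11 neighbours were called in either direction in ME or LE. Around ADH-114, 6 were higher and 3 lower in ME, and 7 and 3 in LE. Around ADH-91, 2 were higher and 0 lower in ME, and 2 and 1 in LE.

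On the PDC strand, the upstream neighbour is the mRNA transfrag10817, 1104 bases away, whose gene is closest to STU2, a microtubule-binding protein in Saccharomyces cerevisiae. Its levels were 682.0, 730.6 and 1209 in EE, ME and LE. Downstream, 350 bases from the PDC mRNA on the same strand, lies the lancRNA transfrag10821, whose 1728 bp coincide with a gene model read in the other direction and closest to DIP5, a permease for acidic amino acids in S. cerevisiae. Its levels were 872.2, 1124 and 1648 in EE, ME and LE, with log2 changes of 0.37 and 0.92 that stay under the limit. The DIP5 mRNA was listed as transfrag12575, a 479 bp fragment of the gene with levels of 11.0, 19.1 and 8.21. Per kb the antisense stood at 504.7, 650.5 and 953.4, against 22.9, 39.8 and 17.1 for this fragment. The PDC antisense starts 380 bases from this DIP5 mRNA, on its strand. At its other end the PDC antisense is followed after 135 bases by the intergenic transfrag12573, with levels of 13.0, 6.42 and 6.60 in EE, ME and LE. The other 7 PDC neighbours, all on the antisense strand, had levels between 1.87 and 50.4.

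**Figure D4:**
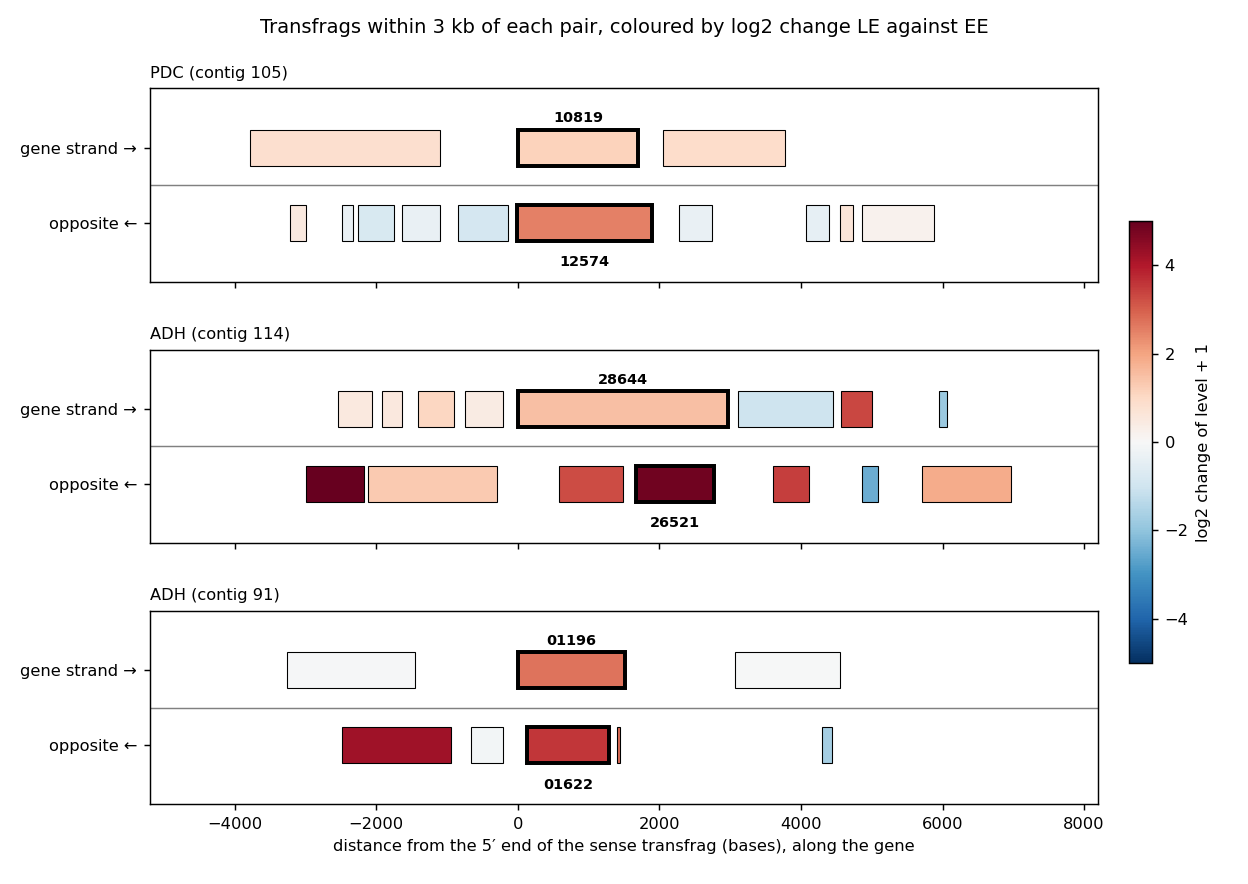
Transfrags within 3 kb of each pair, drawn to scale as boxes by distance in bases from the 5′ end of the mRNA along the gene (x), on the gene strand (upper row) and the opposite strand (lower row), with colour giving the log2 change of level + 1 for LE against EE and thick outlines the 6 members. The PDC antisense spans its whole gene among neighbours that were not called, whereas at ADH-114 5 of the 6 neighbours on the antisense strand were called higher.

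At ADH-114 the calls fell out by strand, a difference that was not tested. On the antisense strand, 5 of 6 neighbours were called higher and 1 lower in both ME and LE, and on the gene strand 1 of 7 was higher and 2 lower in ME and 2 each in LE. The largest change was that of the mRNA transfrag26526 on the antisense strand, with levels of 42.8, 1282 and 1996 in EE, ME and LE and log2 changes of 4.87 and 5.51. Between it and ADH-114, the mRNA transfrag26525 begins 293 bases upstream of the ADH-114 mRNA and is read away from it. Its levels were 479.9, 1171 and 1192, with log2 changes of 1.29 and 1.31. Downstream, 135 bases past the 3′ end of the ADH-114 mRNA on the same strand, the mRNA transfrag28643 fell to 230.7 in ME and 370.1 in LE, against 752.3 in EE, log2 changes of -1.70 and -1.02. The lancRNA opposite it, transfrag26518, had 2.12 in EE, which is under the level of 3 reads, 26.9 in ME and 33.4 in LE. The mRNA transfrag26514, on the antisense strand, had 21.9, 196.5 and 83.0, a course with its highest level in ME like that of the ADH-114 antisense. The mRNA transfrag28642, on the gene strand, had 8.71, 59.1 and 98.2.

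The 6 remaining neighbours of ADH-114 had levels of at most 15.4. They were 4 lancRNAs on the gene strand opposite transfrag26525 and transfrag26526, of which transfrag28646 was called higher in LE, at 15.4 against 6.75 in EE. The other pair, transfrag28638 and transfrag26517, were lower in ME and LE, at levels that fell below 3 reads in LE.

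At ADH-91 the neighbours on the gene strand did not pass the limit. The mRNA transfrag01194, which ends 1456 bases upstream and has no close homolog, was itself among the most abundant, with 18683, 10014 and 18119 in EE, ME and LE. The lancRNA opposite it, transfrag01618, had 35.6, 536.2 and 685.9, log2 changes of 3.87 and 4.23, so both antisense transfrags of this stretch rose in ME and LE while their mRNAs took different courses. Downstream, the mRNA transfrag01200, closest to the membrane protein MRL1 of S. cerevisiae, had 322.8, 182.1 and 315.1. Between both antisense transfrags, the intergenic transfrag01620 had 4.71, 8.75 and 4.25. The sincRNA transfrag01626, a short intergenic transfrag, had 4.79, 4.00 and 0.79, the last below 3 reads, and was called lower in LE.

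The transfrags with the most similar course were sought in the plane of both log2 changes against EE, among transfrags of the same class averaging 10 or more. Within a distance of 0.25 log2 units, the PDC mRNA had 64 of 4018 mRNAs, ADH-114 mRNA 75 and ADH-91 mRNA 29. Other mRNAs thus lay near each of them, as small shares of the class. Some of the nearest had low EE levels, such as 19.9 for transfrag32157 near PDC and 6.12 for transfrag02746 near ADH-91. Their own changes are uncertain, and so are these counts. Of 1467 lancRNAs, 26 lay that close to the PDC antisense, 7 to the ADH-91 antisense and 0 to the ADH-114 antisense. The wider SEs of these antisense changes, from 0.45 to 0.81, exceed that distance. Which lancRNAs lie nearest, and how many lie close, is therefore not resolved. The nearest to the PDC antisense were transfrag11376, opposite a gene closest to phosphofructokinase of K. lactis, an enzyme of upper glycolysis, at a distance of 0.057, and transfrag05831, opposite a gene closest to SBE2 of K. lactis, at 0.066. The levels of transfrag11376 were 13.7, 48.0 and 84.1 in EE, ME and LE. The nearest to the ADH-91 antisense were transfrag12298, opposite a gene closest to AVO2 of S. cerevisiae, at 0.093, and transfrag27688 at 0.13. For the ADH-114 antisense the nearest were transfrag25379 at 0.60 and transfrag14121 at 0.66. The nearest mRNAs were transfrag32157 and transfrag20652 for PDC at 0.015 and 0.034, transfrag28101 and transfrag27891 for ADH-114 at 0.028 and 0.033, and transfrag02746 and transfrag16510 for ADH-91 at 0.032 and 0.054. The nearest to both ADH antisense transfrags had EE levels between 0 and 2.12, under the level of 3 reads, so their distances depend on the added 1. All distances rest on both changes sharing the EE level.

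Around PDC and ADH, 22 genes of pyruvate, acetaldehyde, ethanol and acetate metabolism were listed, including the 3 described here, and all 22 had an mRNA. Of the other 19, 10 were called higher and 5 lower in ME, and 10 and 4 in LE, with median log2 changes of 1.51 and 1.95. Over all mRNAs 33.6% were higher and 31% lower in ME, and 34.2% and 37.2% in LE, with 45.4% and 47.5% higher among those averaging 10 or more, so the counts of the list stand not far from the background. The median over all mRNAs, which include those of low level, was -0.13 in ME and -0.28 in LE. It was not computed for mRNAs averaging 10 or more, so the medians of the list have no background of similar level. A lancRNA lay opposite 11 of the 19, and 5 of these had several, of which the one with the longest overlap was taken. It was called higher in 7 and lower in 1 in both ME and LE, the lower one being that of JEN1 in ME and that of LPD1 in LE. Among all lancRNAs 34.3% were higher in ME and 37.2% in LE, and 51.8% and 58.1% of those averaging 10 or more.

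On the way into pyruvate, pyruvate kinase (PYK) mRNA had levels of 645.4, 6240 and 5882 in EE, ME and LE, log2 changes of 3.27 and 3.19. CYB2, an L-lactate dehydrogenase of the mitochondrial intermembrane space in S. cerevisiae, had 182.1, 563.9 and 997.5. JEN1, a transporter of lactate and pyruvate, had 33.4, 97.0 and 147.0. The lancRNA with the longest overlap of the 2 opposite it had 544.6, 175.6 and 313.8, lower in ME than in EE. DLD1, a D-lactate dehydrogenase, stayed under the limit.

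Enzymes that compete for pyruvate split in direction. Pyruvate carboxylase (PYC), which makes oxaloacetate, had 607.4, 3886 and 5955 in EE, ME and LE. Of the pyruvate dehydrogenase complex, LPD1, the dihydrolipoyl dehydrogenase that other complexes also use, had 284.5, 2694 and 3426, whereas PDX1, which binds that subunit to the core, fell to 805.4 in ME and 971.4 in LE, against 4429 in EE. LAT1, the core acetyltransferase, fell to 2374 in ME, just past the limit, and had 3227 in LE, against 4750 in EE. PKP2, a kinase of the complex, had 18.4, 116.4 and 161.7. The mitochondrial pyruvate carrier subunit MPC3 fell to 181.5 in ME and 268.8 in LE, against 1256 in EE, while MPC1 stayed below 10 in all phases.

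Beyond acetaldehyde, the acetaldehyde dehydrogenase ALD6 had 54.5, 796.4 and 1141 in EE, ME and LE, and the acetyl-CoA synthetase (ACS) mRNA transfrag16197 had 628.0, 4579 and 5926. Both showed larger log2 changes than the mRNAs of PDC and the 2 ADH genes, 3.85 and 4.36 for ALD6 and 2.86 and 3.24 for ACS. A second ACS mRNA, transfrag19977, had 2.04, 26.2 and 27.0. The ALD4 mRNA, a 158 bp fragment, fell to 0.36 in ME and 1.19 in LE, against 6.75 in EE. The EE level of transfrag19977 and the ME level of ALD4 are under the level of 3 reads, and the LE level of ALD4 is at it. Both mRNAs count among the calls of the list, but the sizes of their changes are uncertain. The NADP-dependent ADH6 had 58.4, 216.1 and 229.1, and the butanediol dehydrogenase mRNAs BDH1 and BDH2 stayed under the limit. The ADH that lies beside a glyceraldehyde 3-phosphate dehydrogenase gene, transfrag26945, went the other way, with 119908, 30929 and 47265 in EE, ME and LE, while its antisense, transfrag29061, had 227.9, 5564 and 6876.

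**Figure D5:**
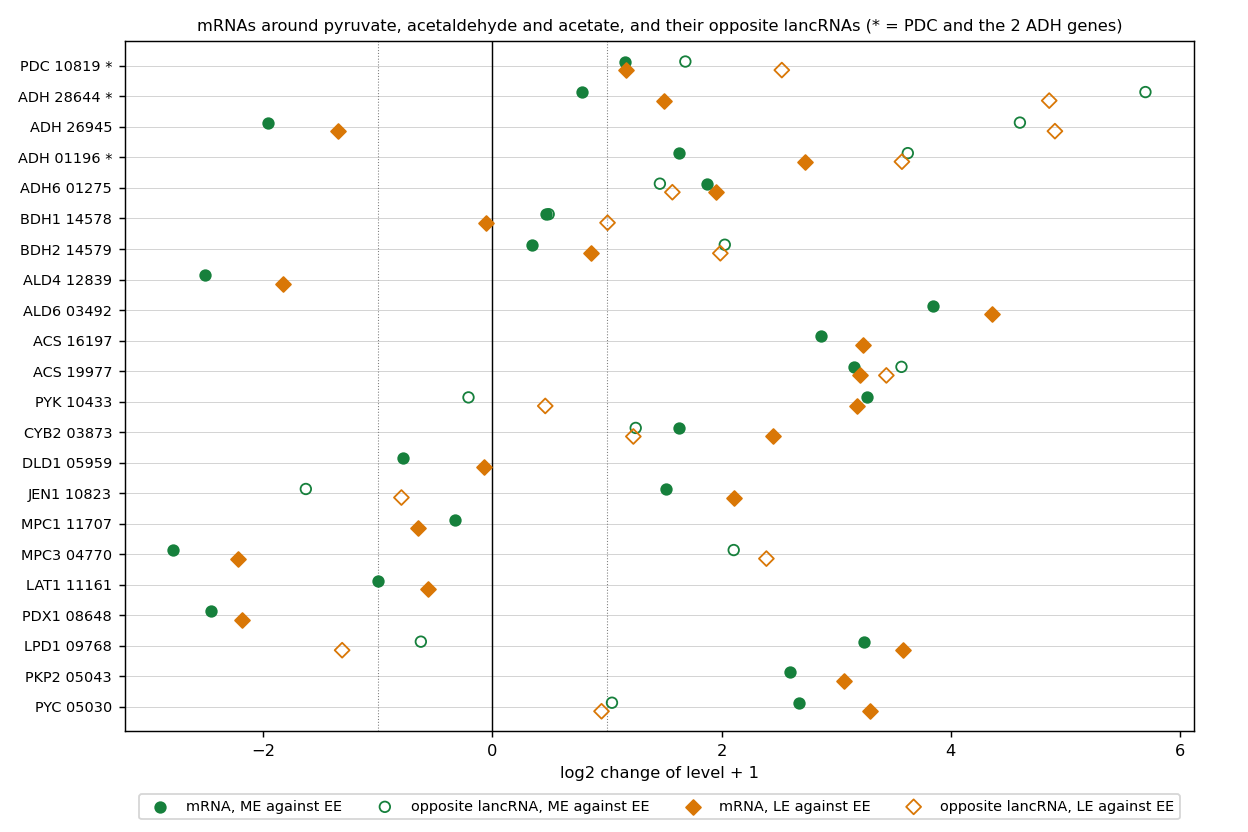
Log2 change of level + 1 (x) for each listed gene (rows), with filled symbols for the mRNA and open symbols for the lancRNA opposite, circles for ME against EE and diamonds for LE against EE; asterisks mark PDC and the 2 ADH genes and dotted lines a 2-fold change. The mRNAs of PDC and both ADH genes lie between 0.78 and 2.72, those of PYK, PYC, LPD1, ALD6 and ACS at 2.68 or more, and those of PDX1, MPC3 and the ADH with transfrag26945 below 0.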

How the data were processed

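Per the labels and the methods, the 6 strand-specific libraries were trimmed and mapped with CLC genomics workbench, reads with several matches were placed at random, and covered stretches of all phases were joined into transfrags and divided at gene boundaries. The submitters' notes name CASAVA 1.4 and DESeq. The deposited values are a signal: counts that the authors divided by DESeq size factors and averaged over the 2 libraries of a phase, with transfrags under a mean level of 1.34 (the 25th percentile) left out. The table held 0 columns of other samples. Size factors and EE reads were recovered here from the steps between low levels (tolerance 0.0075); every low level examined lay on a step. Log2 changes used a pseudocount of 1 and a limit of 2-fold.

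The named transfrags were the 6 members, every transfrag within 3 kb, the mRNAs of a list of 22 genes, and the 2 of the same class nearest to each member by both changes, with a mean level of at least 10. Members and lists were chosen with earlier results of these data known. The gene table held was shortened, so gene models on contig 114 were not analysed here. Percentages called refer to all transfrags of the class named. The alternatives were other pseudocounts, scalings, fold limits and windows, ranks per kb, a level minimum and the subtraction of an estimate of wrong-strand reads. Scripts ran in Python 3.11.15 with NumPy 2.4.6, pandas 2.3.3 and Matplotlib 3.10.9 and were checked on simulated data.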

Additional observations from a re-analysis of the deposited data

How the results depend on the processing

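The log2 changes of the 6 transfrags in ME and LE against EE were positive in all 78 combinations with an alternative, from 0.55 to 7.00. The 3 antisense calls held under every scaling, pseudocount and fold limit tried, and fell to 2 in ME after subtracting the estimate of wrong-strand reads. The count of mRNAs called higher in ME was 3 when scaled by mapped reads, 3 by the summed level, 3 relative to the median change and 3 at a limit of 1.5-fold, but 1 by the summed level without the 100 highest transfrags and 1 at a limit of 3-fold. In LE that count was 2 by the summed level, 1 without the 100 highest and 1 at 3-fold. The cause of these shifts was not tested. Before the added 1, scaling by mapped reads shifted log2 ratios by 1.31 in ME and 0.77 in LE. The summed level shifted them by 0.26 and -0.19, and that sum without the 100 highest by -0.19 and -0.62. The median change of all transfrags in ME and LE was then 0.76 and 0.0033 by mapped reads. It was -0.18 and -0.77 by the summed level, and -0.56 and -1.08 without the 100 highest. Per kb, the antisense percentage moved to 0.162, 5.73 and 1.94 for ADH-114 in EE, ME and LE, and to 1.99 in ME and 0.894 in LE for ADH-91. After the subtraction it was 0.154 in ME and 0.513 in LE for PDC, and 0.564 in LE for ADH-91. Among transfrags averaging 10 or more, 44.4% were called higher and 20.4% lower in ME, and 47.6% and 22.7% in LE. A window of 1 kb held 3, 6 and 3 neighbours of PDC, ADH-114 and ADH-91, and one of 5 kb held 20, 22 and 14. No paired analysis was possible because the table gives 1 averaged level per phase. An EE library could be left out only for the antisense transfrags, an alternative chosen after seeing the data, as were the scalings of LE against ME; either EE library alone left 3 and 3 antisense calls in ME and LE, with log2 changes from 1.16 to 6.54. In ME, LE and the mRNAs no replicate was left out. For LE against ME, the 3 scalings ended the call of the ADH-91 mRNA (0.56 to 0.67) and put the ADH-114 antisense past the limit (-1.38 to -1.27). The EE antisense levels rest on 7 to 30 reads.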
